A study of Mus musculus with 12 samples.

Results

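The genes described here clear nucleic acids from cells and tissue or carry the signal of the DNA-sensing adaptor STING. They are the nucleases Dnase1l3, Dnase2a and Trex1, the deoxynucleotide hydrolase Samhd1 and the adaptor Tmem173 (STING). The others are the RNA-editing enzyme Adar, the kinase Tbk1 and the transcription factors Irf3 and Irf5. The 9 members were taken by symbol from a count table of 55487 genes. Of these, 8 were found under the symbol given. Tmem173 is listed there as Sting1 and was matched by its Ensembl identifier, to which GENCODE M21 gives the name Tmem173. Counts were present for 8 of the 9 members, and the same 8 passed the filter on low counts.

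Whole lungs of C57BL/6NCr mice, an inbred substrain of C57BL/6, were profiled by RNA sequencing at 4 ages, 6, 12, 20 and 30 months, written 6M, 12M, 20M and 30M, to find transcripts that change with age. A library is written here as its age and its number, and there were 3 per age. The mice of the 4 ages differed in age alone as far as the labels go: no genotype, treatment or transgene is named, and sex and housing are not in the labels. The labels do not say that each library is a separate animal or whether animals were pooled, so the p-values reflect only how much these libraries vary, which may be technical. The sample is whole lung, so fewer cells of a type and less RNA per cell, or more of either, cannot be told apart in a level.

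Cells keep DNA out of the cytosol with nucleases that work in different places. DNASE1L3 is secreted and digests DNA in chromatin and on microparticles, DNASE2 digests DNA in the lysosome, and TREX1 degrades DNA in the cytosol. SAMHD1 instead hydrolyses deoxynucleotides and so limits DNA synthesis. DNA that does reach the cytosol is bound by the enzyme cGAS, which makes cGAMP, the ligand of STING. STING then recruits the kinase TBK1, which phosphorylates the transcription factor IRF3, and IRF3 turns on type I interferon genes. ADAR edits double-stranded RNA and so keeps a cell's own RNA from being sensed, and IRF5 acts mainly in myeloid and B cells downstream of Toll-like receptors. In humans, loss-of-function variants of TREX1, SAMHD1 and ADAR cause Aicardi-Goutières syndrome, and activating variants of STING cause a vasculopathy with lung disease.

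Total counts per library ran from 12152066 to 15058628, and 18407 genes were tested. Values below are CPM (counts per 1e+06 counts of a library, scaled between libraries by TMM), as mean ± SD over 3 libraries, and fold changes are log2 values from edgeR with their standard error. A gene is called where its adjusted p is under 0.05. Markers of alveolar type 2 and type 1 cells were present in every library, at 16800 to 29450 and 3700 to 5313 summed CPM at 30M, against 28260 to 32880 and 5476 to 6642 at 6M. Some libraries stood apart. In 20M_221, 20M_222 and 30M_220 the level of a gene relative to 6M followed its GC content, at a rank correlation of 0.358, 0.465 and 0.328 over 18382 genes. That of 12M_208 was 0.229 and the other 8 libraries lay between -0.0869 and 0.0518. 20M_222 also held skeletal muscle transcripts, at 2182 summed CPM against 10.1 to 40.6 in the others.

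The list was chosen with results of 30M against 6M in view, so the members' values in that comparison are a description and carry no test. At 30M, Dnase1l3, Irf5 and Tmem173 stood above 6M by the most, Adar and Samhd1 by less, and Dnase2a, Irf3 and Tbk1 were close to their 6M levels. Of the 8 members with counts, 3 (Dnase1l3, Irf5 and Tmem173) were past the call threshold in that comparison, where 1.96% of all tested genes were called in either direction. In 5 members every 30M library was above every 6M library, which was the case for 9.89% of all genes, and groups that do not overlap in either direction made up 18.6%. Since the list was chosen on this contrast, nothing is read from these counts. The median log2 fold change of the 8 members was 0.50, beside 0.00 for all genes.

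**Figure D1:**
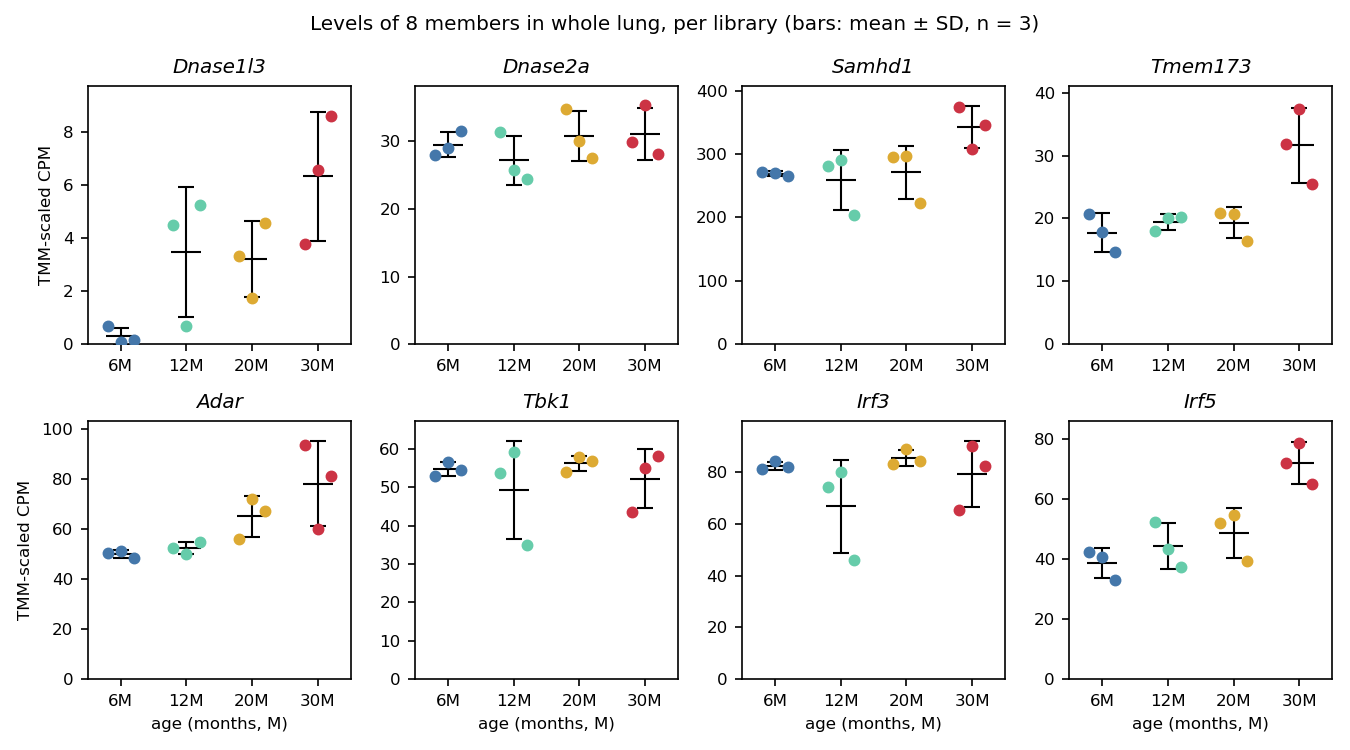
Level of each of the 8 members with counts in each library, in TMM-scaled CPM on a linear axis that starts at 0, against age in months. Points are libraries, and horizontal bars with whiskers are the mean ± SD of 3 libraries. Dnase1l3, Samhd1, Tmem173, Adar and Irf5 have all 30M points above all 6M points, while Dnase2a, Tbk1 and Irf3 overlap between 30M and 6M.

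Among the nucleases, Dnase1l3 (14:7964533-7994573 on the minus strand, GRCm38) was the member with counts that was nearly absent at 6M. At 6M the 3 libraries held 9, 1 and 2 counts, which is 0.672, 0.0825 and 0.162 CPM. At 12M it stood at 4.51, 0.674 and 5.24 CPM, at 20M at 3.31, 1.75 and 4.58 CPM, and at 30M at 3.79, 6.56 and 8.60 CPM. The level was thus already high in 12M_206 and 12M_208, while 12M_207 was barely above the highest 6M library. Every library of 12M, 20M and 30M was above every 6M library, and the ranges of 12M, 20M and 30M overlapped. For 12M_207 this rests on the scaling between libraries, as it held 8 counts and 6M_201 held 9. The mean was 6.32 ± 2.41 CPM at 30M and 0.305 ± 0.320 CPM at 6M (SD, n = 3 each), a log2 fold change of 4.30 (SE 0.80). Because Dnase1l3 passed the filter on low counts only through the older ages and its 6M level rests on 12 counts over 3 libraries, the size of that fold change is loosely set, and it was 5.58 without 6M_201 and 3.87 without 6M_202. Without the 3 libraries with a GC trend, of which 30M_220 held the highest level, it was 4.0. Against 6M, the log2 fold change was 3.44 (SE 0.81) at 12M, with an adjusted p of 0.988 in edgeR, and 3.32 (SE 0.81) at 20M, with an adjusted p of 0.55 in edgeR, so neither was called. Both comparisons use the same 6M libraries as 30M against 6M and are not independent of it.

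Samhd1 (2:157097533-157135265, minus strand) was the most abundant member. It stood at 272, 270 and 265 CPM at 6M, at 282, 290 and 205 CPM at 12M, at 295, 296 and 223 CPM at 20M and at 374, 308 and 347 CPM at 30M. All 30M libraries were above all others, and the lowest library at 12M (12M_208) and at 20M (20M_222) fell below all of 6M. The mean was 343 ± 33.2 CPM at 30M and 269 ± 3.64 CPM at 6M, a log2 fold change of 0.35 (SE 0.17).

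Dnase2a (8:84908560-84922915, plus strand), the lysosomal enzyme, had overlapping ranges at all ages. It stood at 27.99, 28.97 and 31.5 CPM at 6M, at 31.3, 25.8 and 24.5 CPM at 12M, at 34.8, 30.01 and 27.5 CPM at 20M and at 29.8, 35.4 and 28.1 CPM at 30M. No age stood apart, and the log2 fold change at 30M against 6M was 0.08 (SE 0.15). Of its annotated exonic bases, 30% (1616 bases) also lie in exons of Mast1 on the other strand, and whether counting used the strand is not given in the sources used here. Mast1 was at 7.29 ± 1.61 CPM at 30M and 8.24 ± 0.933 CPM at 6M.

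Trex1 (9:109057933-109059734, minus strand), the cytosolic exonuclease, is listed at 0 counts in all 12 libraries, where 3 counts, the limit that a count of 0 allows, would be 0.188 to 0.253 CPM per library. All 1147 of its annotated exonic bases (100%) lie inside exons of Atrip on the same strand, so a read from Trex1 also falls on Atrip. How the counting treated such reads was not tested, and the limit covers only reads assigned to Trex1, so no level of it is read from the 0. Atrip, which takes part in the DNA damage checkpoint, was at 12.3 ± 1.40 CPM at 30M and 12.1 ± 1.01 CPM at 6M.

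Tmem173 (18:35733679-35740554, minus strand), the adaptor that cGAMP activates, had its highest values at 30M. It stood at 20.8, 17.9 and 14.6 CPM at 6M, at 17.95, 20.1 and 20.3 CPM at 12M, at 20.9, 20.8 and 16.5 CPM at 20M and at 31.9, 37.5 and 25.5 CPM at 30M. All 3 of the 30M libraries were above the other 9, and the 3 younger ages overlapped. The mean was 31.6 ± 5.97 CPM at 30M and 17.8 ± 3.06 CPM at 6M, a log2 fold change of 0.83 (SE 0.18). Against 20M, whose mean was 19.4 ± 2.51 CPM, it was 0.71 (SE 0.18) with an adjusted p of 0.164 in edgeR and 0.0246 in DESeq2.

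Adar (3:89715022-89753446, plus strand) had its highest values at 20M and 30M. It stood at 50.5, 51.2 and 48.3 CPM at 6M, at 52.3, 50.03 and 54.7 CPM at 12M, at 55.9, 71.8 and 67.1 CPM at 20M and at 93.3, 59.95 and 81.02 CPM at 30M. All libraries of 20M and of 30M were above those of 6M and of 12M, and 20M and 30M overlapped. The mean was 78.1 ± 16.9 CPM at 30M and 49.99 ± 1.53 CPM at 6M, a log2 fold change of 0.64 (SE 0.16), just short of the threshold of a call. At 20M against 6M it was 0.38 (SE 0.16), with an adjusted p of 0.638 in edgeR. The 2 higher 20M libraries, 20M_221 and 20M_222, and 30M_220 are those with the GC trend. Without these 3 the log2 fold change was 0.62 at 30M against 6M and 0.15 at 20M against 6M. Of its exonic bases, 16.8% (1365 bases) also lie in exons of Chrnb2 on the other strand, which was at 26.5 ± 2.64 CPM at 30M and 18.3 ± 2.33 CPM at 6M, so that reads of the overlap cannot be assigned to either gene if counting ignored the strand.

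The kinase Tbk1 (10:121546455-121586787, minus strand), which STING recruits, had similar levels at the 4 ages. It stood at 52.9, 56.6 and 54.5 CPM at 6M, at 53.8, 59.3 and 34.9 CPM at 12M, at 54.02, 57.9 and 56.7 CPM at 20M and at 43.5, 55.1 and 58.1 CPM at 30M. The 2 lowest values were those of 12M_208 and 30M_216, and the ranges of the ages overlapped. The log2 fold change at 30M against 6M was -0.07 (SE 0.18).

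Irf3 (7:44997648-45002848, plus strand), the factor that TBK1 phosphorylates, had the same 2 low libraries. It stood at 81.1, 84.2 and 81.9 CPM at 6M, at 74.3, 79.9 and 46.2 CPM at 12M, at 83.2, 88.8 and 84.4 CPM at 20M and at 65.2, 90.1 and 82.2 CPM at 30M. All 12M libraries were below all of 6M, and 30M overlapped with 6M. The log2 fold change was -0.06 (SE 0.18) at 30M against 6M and -0.30 (SE 0.18) at 12M against 6M, with an adjusted p of 0.988 for the second in edgeR. Without 12M_208 the second was -0.10, and over the fits without 1 library it ran down to -0.45. A small share of its exonic bases, 2.56%, overlaps Bcl2l12 on the other strand.

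Irf5 (6:29526625-29541871, plus strand) was highest at 30M. It stood at 42.2, 40.5 and 32.9 CPM at 6M, at 52.3, 43.3 and 37.3 CPM at 12M, at 51.9, 54.7 and 39.1 CPM at 20M and at 72.01, 78.7 and 64.9 CPM at 30M. All 3 of the 30M libraries were above the other 9, and the 3 younger ages overlapped. The mean was 71.8 ± 6.90 CPM at 30M and 38.5 ± 4.95 CPM at 6M, a log2 fold change of 0.90 (SE 0.17). Against 20M it was 0.56 (SE 0.17), with an adjusted p of 0.251 in edgeR. Of its exonic bases, 14.1% overlap Tnpo3 on the other strand, which was at 71.2 ± 2.33 CPM at 30M and 70.4 ± 2.29 CPM at 6M.

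20M against 12M shares no library with 30M against 6M and was the comparison least touched by the choice of the list. edgeR called none of the 8 members there, none had an unadjusted p under 0.05, and DESeq2 called none. Over all genes 0% were called by edgeR, although 2062 had an unadjusted p under 0.05 and DESeq2 called 9. The adjusted p-values of the members ran from 0.463 (Adar) to 0.991 (Tmem173), and their median log2 fold change was 0.15, beside 0.02 for all genes. Irf3 had a log2 fold change of 0.36 (SE 0.18) and an adjusted p of 0.467 in edgeR, and Adar one of 0.31 (SE 0.16) and 0.463. That of Irf3 was 0.14 without 12M_208 and 0.50 at most without another library. In these 2 of 8 members all 20M libraries were above all 12M libraries, in a comparison where 15.0% of all genes did not overlap. Dnase1l3 had a log2 fold change of -0.12 (SE 0.64) there, against the much larger value of 30M against 6M.

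**Figure D2:**
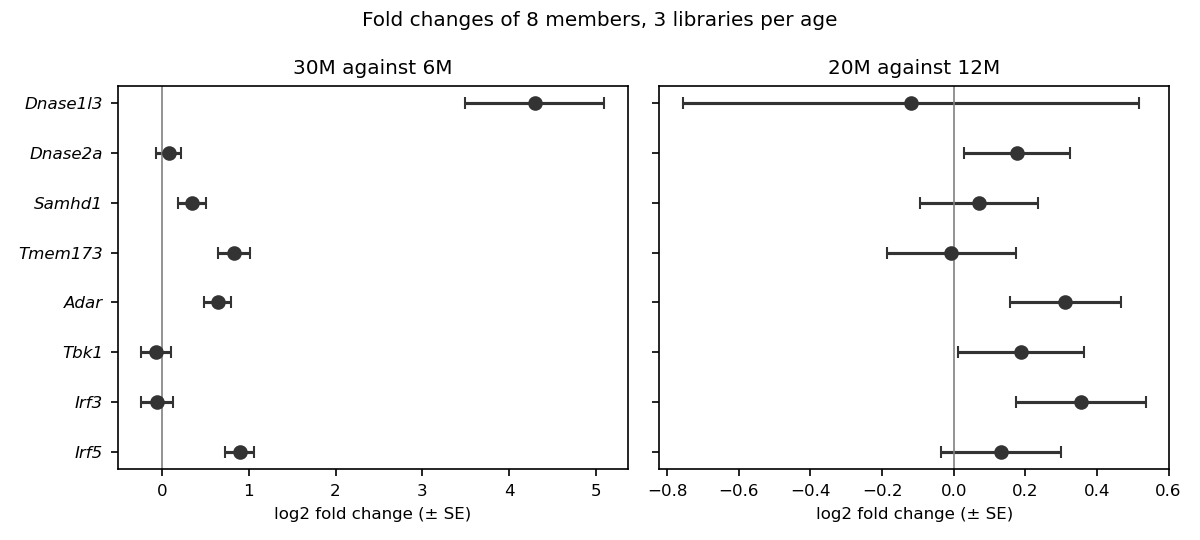
Log2 fold change ± SE of the 8 members with counts, at 30M against 6M on the left and at 20M against 12M on the right, on separate axes. Dnase1l3 stands at 4.30 on the left and at -0.12 on the right, and the right panel holds no called member.

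The other comparisons share libraries with 30M against 6M, and none of them called a member in edgeR. At 20M against 6M, 0.0163% of all genes were called, and 2 of 8 members (Dnase1l3 and Adar) did not overlap between the ages, against 15.4% of all genes. At 12M against 6M, 0% were called, with 662 genes at an unadjusted p under 0.05 and 9 called by DESeq2, and 2 of 8 members (Dnase1l3 above, Irf3 below) did not overlap, against 12.1% of all genes. At 30M against 20M, 0.212% of genes were called, and 3 of 8 members (Samhd1, Tmem173 and Irf5) did not overlap, all with 30M above, against 10.8% of all genes. In that last step the log2 fold change was 0.34 (SE 0.17) for Samhd1 with an adjusted p of 0.599, and 0.27 (SE 0.16) for Adar with 0.692, both in edgeR. Members with an unadjusted p under 0.05 in edgeR numbered 2 at 20M against 6M (Dnase1l3 and Adar) and 1 at 12M against 6M (Dnase1l3). At 30M against 20M they numbered 2 (Tmem173 and Irf5). Over all 18407 genes the numbers were 1436, 662 and 1636 in that order. Nothing is read from these counts of members, as the comparisons share libraries with the one the list was chosen on. Dnase1l3 also passed the filter only through the older ages. DESeq2 called Tmem173 at 30M against 20M, and in the 2 comparisons with 6M it called Dnase1l3, from which nothing is read, given its few counts at 6M.

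To compare levels between members, counts were put on a scale per length (TPM, with the longest annotated transcript as the length). At 30M the order was Samhd1 at 176 ± 27.2 TPM, Irf3 at 79.1 ± 17.7, Irf5 at 64.3 ± 4.35, Tbk1 at 35.2 ± 8.92, Tmem173 at 27.4 ± 3.16, Adar at 26.7 ± 6.50, Dnase2a at 15.3 ± 1.61 and Dnase1l3 at 2.76 ± 1.36 TPM. Samhd1 was above Irf3 in every 30M library. The neighbours Irf3 and Irf5, Tbk1 and Tmem173, and Tmem173 and Adar overlapped in their ranges, while Dnase2a lay below Adar and Dnase1l3 below Dnase2a without overlap. With the union of exons as the length, Samhd1 was at 92.0 TPM, and Irf5 at 60.4 TPM came before Irf3 at 56.8 TPM.

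The members also varied together in part. Over the 12 libraries the log2 levels of Tbk1 and Irf3 had a Pearson r of 0.949, and those of Tmem173 and Irf5 one of 0.895, while Dnase1l3 and Dnase2a had 0.0922. These libraries share the 4 ages and the 2 libraries in which Tbk1 and Irf3 were low, so the values are descriptions. Over all 14378 genes with a mean of at least 1 CPM, the genes most like a member in log2 level across the 12 libraries were as follows. For Irf5 they were Fgr, a Src-family kinase of myeloid cells (r = 0.973), Lst1 (r = 0.962) and Coro1a, an actin-binding protein of leukocytes (r = 0.960). For Tmem173 they were Tnfaip8l2 (r = 0.976), Psmb9, a subunit of the immunoproteasome (r = 0.960), and Arhgdib (r = 0.950). For Samhd1 they were Naip5, a sensor of bacterial flagellin (r = 0.935), Ppm1h (r = 0.927) and Cd274, which encodes PD-L1 (r = 0.919). The genes nearest to Dnase1l3 were Pla2g2d, a secreted phospholipase (r = 0.958), Bri3bp (r = 0.936) and Fancd2 (r = 0.931), and those nearest to Adar were Naip2 (r = 0.916), Slc7a8 (r = 0.915) and Slc16a10 (r = 0.915).

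For Tbk1 the nearest genes were Khdc4 (r = 0.990), Sltm (r = 0.978) and Pan3 (r = 0.968). Without 12M_208 and 30M_216, its lowest libraries, r was 0.842 for Khdc4, 0.572 for Sltm and 0.260 for Pan3. For Irf3 they were Ccnl2 (r = 0.980), Slc2a4rg-ps (r = 0.979) and Pnn (r = 0.978), and without the same libraries r was 0.685, 0.888 and 0.630 in that order. For Dnase2a they were Acyp1 (r = 0.883), Isoc2a (r = 0.883) and Zfp784 (r = 0.881), and without 30M_218 and 12M_208 r was 0.832, 0.77 and 0.844. For the genes nearest to Adar, r was 0.731, 0.825 and 0.842 without 30M_216 and 30M_220. With the libraries farthest from a member's median left out likewise, the genes nearest to Irf5, Tmem173, Samhd1 and Dnase1l3 had an r of 0.852 to 0.948.

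Markers of tissue macrophages, cells that express several of these genes, stood high in the same libraries. Of 9 such markers, 8 were called higher at 30M against 6M, and their summed level was 712 to 778 CPM at 30M against 284 to 335 CPM at 6M, with 332 to 378 at 12M and 366 to 404 at 20M and with no marker at 0 in any library. Without 6M_202 or 6M_203, 5 of them were called. All marker lists, those of dendritic cells and T cells included, were made with earlier results of these data known. Their numbers of calls are thus descriptions, beside 1.96% of all tested genes called at 30M against 6M in either direction. Of 6 markers of red pulp or Kupffer-type macrophages, a class of macrophages of spleen and liver, 3 were called higher, and their summed level was 34.9 to 252 CPM at 30M against 10.4 to 22.9 CPM at 6M. None of the 6 was called when any one of the 6M libraries was left out, 1 was without 30M_218, and the median was 3.40 to 4.79 over the fits without 1 library. Among them Clec4f was at 0 in all libraries of 6M and 12M and in 2 of 20M. Their part in the levels of Tmem173, Irf5 and Samhd1 was not tested. Dnase1l3 was high in 12M_206 and 12M_208, where the median of the red pulp list stood 0.67 and -0.18 log2 units from its 6M mean. In 12M_207, where Dnase1l3 was low, that median stood at -0.04. What part these macrophages had in the level of Dnase1l3 was not tested. Plasma cell markers followed the same order as Dnase1l3 over the 12M libraries, at 512, 354 and 761 summed CPM in 12M_206, 12M_207 and 12M_208. Their sum was 341 to 350 CPM at 6M, 347 to 691 at 20M and 380 to 654 at 30M. The order was shared at 6M too, over that narrow range, but was reversed at 30M. There the sum was highest in 30M_216, the library lowest in Dnase1l3, and lowest in 30M_220, the library highest in Dnase1l3. Of the 20M libraries, 20M_221 was lowest in both, while the sum was highest in 20M_213 and Dnase1l3 in 20M_222. No plasma cell marker was at 0 in any library, and 1 of the 4 tested, the immunoglobulin-joining gene Jchain, was called at 30M against 6M. It averaged 207.9 CPM at 12M, 243 CPM at 20M and 228 CPM at 30M, against 18.5 CPM at 6M, and Jchain was named after its values were seen. Over the 4 tested, log2 fold changes against 6M ran from -0.71 to 3.49 at 12M (median 0.43) and from -0.25 to 3.63 at 30M (median 0.69). The rise of Jchain is part of the summed level, so the sum does not stand for each marker. The part of Jchain, or of plasma cells, in the level of Dnase1l3 was not tested.

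Conventional dendritic cell markers summed to 94.3 to 130 CPM at 30M and 68.7 to 90.7 CPM at 6M, with 3 of 7 called higher, and T cell markers had 3 of 5 called higher. In both lists no marker was called without 6M_202, 6M_203 or 30M_218 and 1 was called without 6M_201, and the T cell list had 1 call without 12M_207. The dendritic cell median was 1.24, and 0.69 without 30M_218. None of the 5 plasmacytoid dendritic cell markers was called, at 122 to 255 CPM at 30M against 92.2 to 123 CPM at 6M. B cell markers were not called either, at 76.3 to 287 CPM at 30M against 133 to 270 CPM at 6M. The 5 neutrophil markers and the 8 alveolar macrophage markers included none that passed the test. Their median log2 fold changes at 30M against 6M were 0.62 and -0.33. Of the 8 alveolar macrophage markers only 2 had a positive log2 fold change. In 2 of the 8 all 30M libraries were above all of 6M, and in 2 all were below.

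**Figure D3:**
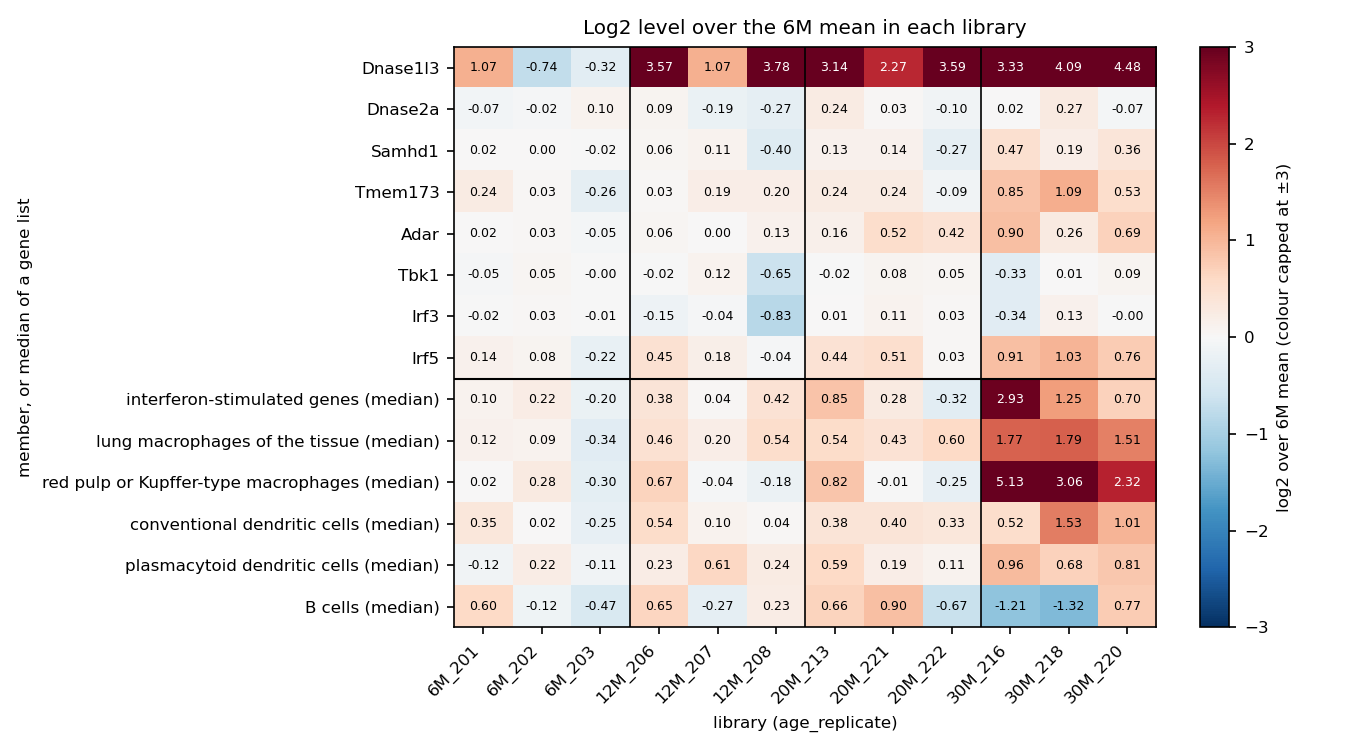
Log2 level over the 6M mean in each library for the 8 members with counts (top) and for the median of 6 gene lists (bottom), with values from log2 CPM with a prior count of 2 and a colour scale capped at 3 in either direction. Tissue macrophage markers stand 1.51 to 1.79 above 6M in the 30M libraries, and interferon-stimulated genes 0.70 to 2.93 with 30M_216 the highest. Dnase1l3 stands at 1.07 to 4.48 in the libraries of 12M, 20M and 30M, with 12M_207 level with 6M_201 at 1.07.

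The other genes of the pathway came from lists made with earlier results of these data known. Of 13 nucleases outside the list, 10 were tested and 1 was called higher at 30M against 6M. This was Pld4, an exonuclease of endosomes and lysosomes that digests single-stranded nucleic acids, at 92.5 ± 8.94 CPM at 30M and 22.2 ± 8.04 CPM at 6M. All 30M libraries (82.7 to 100.3 CPM) were above all of 6M (15.8 to 31.2 CPM), with a log2 fold change of 2.06 (SE 0.24) and an adjusted p of 0.00152 in edgeR. Pld4 was also called at 30M against 20M, with a log2 fold change of 1.31 and an adjusted p of 0.041 in edgeR. The lysosomal exonuclease Pld3 had a log2 fold change of 0.24 (adjusted p = 0.638 in edgeR), the DNase Dnase1l1 of 0.38 (0.355) and Rnaseh2a, the catalytic subunit of RNase H2, of 0.23 (0.629). The list's median log2 fold change was 0.24.

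Of 12 genes for cytosolic DNA sensing and the handling of cGAMP, 1 was called higher. Zbp1, a sensor of Z-form nucleic acids that drives cell death, was at 55.6 ± 39.5 CPM at 30M (22.8 to 99.4) and 8.44 ± 2.12 CPM at 6M (6.47 to 10.7), without overlap. Its log2 fold change was 2.71 (SE 0.53) with an adjusted p of 0.0242 in edgeR, and leaving out any one of the 6M libraries ended the call, with adjusted p-values of 0.0714, 0.116 and 0.165. Ifi204, a DNA-binding protein of the interferon-inducible p200 family, was at 53.5 ± 49.5 CPM at 30M and 7.20 ± 1.38 CPM at 6M (log2 fold change 2.89, adjusted p = 0.0585 in edgeR). Mb21d1, the gene of cGAS, was at 6.41 ± 2.14 CPM at 30M and 3.21 ± 0.377 CPM at 6M (0.99, adjusted p = 0.138), and Ddx41, a helicase, had 0.24 (0.506). The list's median was 0.13.

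Of 9 genes for cytosolic RNA sensing, 1 was called higher and all 9 had positive log2 fold changes, with a median of 0.23. Dhx58, which encodes LGP2, was at 20.4 ± 12.1 CPM at 30M and 7.21 ± 0.542 CPM at 6M, without overlap, with a log2 fold change of 1.49 (SE 0.35) and an adjusted p of 0.0478 in edgeR. It lost the call in 8 of the 12 fits that leave out 1 library, and was at 0.89 with an adjusted p of 0.124 without 30M_216. The RNA-activated kinase Eif2ak2 (0.73, adjusted p = 0.125 in edgeR) and the sensors Ifih1 (0.74, 0.177) and Ddx58, the gene of RIG-I (0.51, 0.236), were not called.

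Of 8 genes that move or restrain STING, edgeR called none, with a median log2 fold change of 0.06, 1 unadjusted p under 0.05 and no call in DESeq2. Over all 18407 genes, 2130 had an unadjusted p under 0.05 at 30M against 6M, beside which the counts of this and the following lists stand. The gene with the smallest p was Nlrx1, a mitochondrial protein of the NLR family (0.58, adjusted p = 0.208 in edgeR). Of 12 kinases, scaffolds and interferon regulatory factors, edgeR called none, with a median of 0.42, 6 unadjusted p-values under 0.05 and 3 calls in DESeq2 (Irf7, Irf8 and Irf9). Irf7, which amplifies interferon production, was at 107 ± 103 CPM at 30M (36.8 to 226) and 20.8 ± 4.72 CPM at 6M (log2 fold change 2.36, adjusted p = 0.0745 in edgeR), so the 30M libraries varied widely but stayed above 6M. Irf9, a subunit of the factor ISGF3, had 0.63 (0.0871), Irf8 0.74 (0.11) and Irf1 0.59 (0.133).

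Of 12 genes for type I interferons, their receptor and its STATs, 6 were tested and edgeR called none, with 3 unadjusted p-values under 0.05 and 2 calls in DESeq2. Ifnb1, Ifna1, Ifna2, Ifna4 and Ifne were listed at 0 in all libraries. Stat2 was at 93.7 ± 27.9 CPM at 30M and 50.5 ± 2.56 CPM at 6M (log2 fold change 0.89, adjusted p = 0.0519 in edgeR). The receptor subunit Ifnar2 had 0.45 (0.196) and the kinase Tyk2 0.28 (0.719).

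Of 12 interferon-stimulated genes, 2 were called higher, 11 had an unadjusted p under 0.05 and DESeq2 called 8, with a median log2 fold change of 1.92. The called genes were Oas2 and Oasl2, both oligoadenylate synthetase family genes, at log2 fold changes of 2.28 (adjusted p = 0.0128 in edgeR) and 1.54 (0.0144). Oas1a had 2.09 (0.063) and Rsad2, the gene of viperin, 2.43 (0.0716). The summed level was 1291, 495 and 311 CPM in 30M_216, 30M_218 and 30M_220, against 214 to 256 CPM at 6M. Without 30M_216 the list's median was 1.02 with 2 genes called, and without 6M_203 it was 1.80 with no gene called. At 20M against 12M edgeR called no gene of any of these pathway lists.

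Adar and the interferon-stimulated genes were both highest in 30M_216, where Adar was at 93.3 CPM. In 30M_218 Adar was the lowest of the 3 and the interferon-stimulated genes were the second highest. Tmem173 was highest in 30M_218, and Dnase1l3 was highest in 30M_220, the library with the lowest interferon-stimulated genes of that age. Whether the levels of these members are linked to those of the interferon-stimulated genes was not tested.

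**Figure D4:**
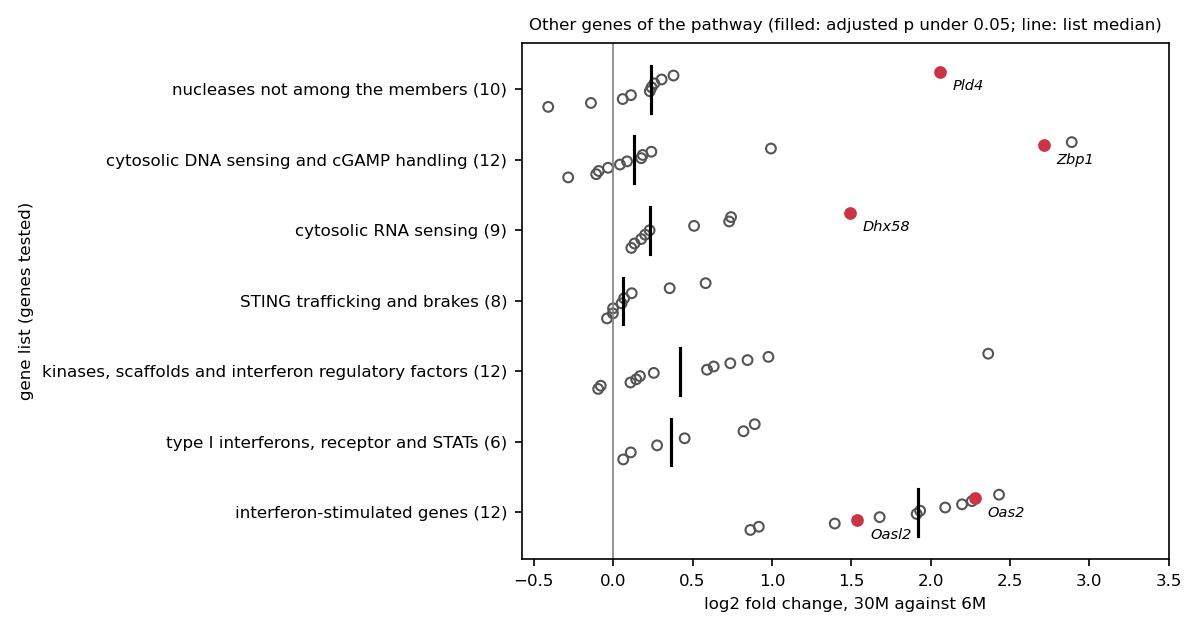
Log2 fold change at 30M against 6M of each tested gene in 7 pathway lists, with the number of genes tested in brackets. Filled points have an adjusted p under 0.05 in edgeR (Pld4, Zbp1, Dhx58, Oas2 and Oasl2), open points do not, and vertical lines are list medians, from 0.06 for STING trafficking and brakes to 1.92 for interferon-stimulated genes.

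Promoter sequence was looked at because the interferon-stimulated genes stood high at 30M together with some members. RefSeq start sites (GRCm38.p6) gave 10 windows, from 250 bases before to 50 bases after a start, for 7 of the 9 members, with none for Dnase1l3, and Tmem173 was not searched. Windows were searched on both strands for GAAANNGAAA, the core of the interferon-stimulated response element to which ISGF3 binds, for its shorter form GAAANNGAA, which was added after the sequences were seen, and for TTCNNNGAA, the STAT-binding GAS element. Among all 32851 RefSeq windows, 3.44% hold the first, 8.56% the second and 8.3% the third. None of the 10 windows held the first. The second was found only in the window of an internal Adar start at 3:89730718, at positions -249 to -241 and 34 to 42 from the start, and the third in that window, at 23 to 31, and in that of Samhd1, at -235 to -227, where the first transcribed base is position 1. The interferon-inducible form of ADAR, p150, is known to start from a promoter of its own. The 3 stretches shown hold the shorter response element form in Adar and the GAS element in Samhd1, on the strand of the gene from 5′ to 3′, with that motif in capitals. The GAS match of Adar, at 23 to 31, lies in lower case within the second stretch.
Adar, chr3:89730468-89730497: gGAAAAGGAActtcctcacagggcggagag
Adar, chr3:89730738-89730767: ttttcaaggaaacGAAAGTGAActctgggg
Samhd1, chr2:157135313-157135342: aacaccaccctTTCGGAGAAacacaagggc
A match is a run of letters, and no binding was measured here. Counts were made per gene, so the 3 Adar starts in RefSeq cannot be told apart in level.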

How the data were processed

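RNA sequencing of whole lung from 12 mouse libraries, 3 at each of 4 ages, was used. The deposited table holds raw counts per gene, which the authors made with no normalization, per the file headers and its whole-number values. RNA was taken with ISOGEN II, poly-A selected and read in pairs on an Illumina platform, per the labels' protocols. Per the submitters' processing notes, FastQC 0.11.7, Trimmomatic 0.38, HISAT2 2.1.0 and featureCounts were used with the build GRCm38 (mm10). The annotation release and strand setting: not given in the sources used here.

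Counts were fitted in R 4.3.3 with edgeR 4.0.16 (quasi-likelihood test, robust, TMM, filterByExpr by age). All 12 libraries entered the same fit, with Benjamini-Hochberg adjustment over the 18407 genes tested. The common biological coefficient of variation was 0.236. The gene test was tried on simulated data for 30M against 6M. At simulated fold changes of 1.5, 2 and 4, it found 3.12%, 37.9% and 98.4% of the altered genes. Of its 93 calls there, 3 were false. Most shifts of 2-fold or less would thus be missed, and a missing call does not show that a gene kept its level. DESeq2 1.42.0, other normalization, other filters, fits of 2 ages, a term for 20M_221, 20M_222 and 30M_220, whose levels follow GC content, and leaving out each library were alternatives. Fits without those 3 libraries were added after the data were seen. The members and gene lists were chosen with earlier results of these data known. Named pathway genes are up to 4 of a list with the smallest p at 30M against 6M, plus any called at 20M against 12M. A gene that this rule names is not reported here. Genes nearest to a member are the 3 with the highest r, predicted genes left out. GENCODE M21 (GRCm38) gave exons, lengths and GC content, and 99.4% of the 55141 table genes found in it have the same start and end. Libraries of an age were not copies of each other: their chi-square per gene was 6.66 to 49.9. Intervals and limits of counts cover counting error only.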

Additional observations from a re-analysis of the deposited data

How the results depend on the processing

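No paired analysis was possible because the replicate numbers are not shared between ages. Genes called numbered 361 at 30M against 6M (753 with DESeq2, 69 to 415 without 1 library), 3 at 20M against 6M (60 with DESeq2, 0 to 5 without 1 library), 0 at 12M against 6M (9 with DESeq2, 0 to 1 without 1 library) and 0 at 20M against 12M (9 with DESeq2). At 30M against 20M they numbered 39, with 319 in DESeq2, 77 with no filter on low counts, 0 with only the 2 ages compared, 0 without the 3 GC-trend libraries, and 0 to 78 without 1 library. The cause was not tested.

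Members called at 30M against 6M numbered 3, and 0 to 4 without 1 library: 0 without 6M_202 or 6M_203, 2 without 30M_216 or 30M_218 and 4 without 20M_213. DESeq2 called 4, with Adar added, and 2 were called with only the 2 ages compared or without the 3 GC-trend libraries, where Dnase1l3 was not. The list was chosen with results of 30M against 6M in view. The numbers of members called there thus describe only how a threshold depends on the processing, and carry no test. DESeq2 called 1 member at 20M against 6M and 1 at 12M against 6M (Dnase1l3 in both) and 1 at 30M against 20M (Tmem173). At 20M against 12M, where no member was called under any alternative, the log2 fold change changed sign without 1 library for Dnase1l3 (-0.61 to 0.29), Samhd1 (-0.0784 to 0.19), Tmem173 (-0.0784 to 0.10) and Tbk1 (-0.0140 to 0.34), and that of Tmem173 was 0.20 with a term for the 3 libraries and 0.10 without them. The median log2 fold change of all genes at 30M against 6M lay between -0.02 and 0.01 under the alternatives. At the depth of these libraries Dnase1l3 at 6M rests on 1 to 9 counts a library.

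Of the pathway genes called at 30M against 6M, Pld4 stayed called under every alternative. Oas2 lost its call without 6M_201 or 6M_203 (adjusted p = 0.0593 and 0.0988 in edgeR) and Oasl2 without any one of the 6M libraries (0.0533, 0.0534 and 0.109). With only the 2 ages compared, edgeR gave adjusted p-values of 0.0662 for Oas2, 0.0537 for Oasl2, 0.0615 for Zbp1 and 0.0846 for Dhx58, and with no filter on low counts 0.0538 for Oas2 and 0.115 for Zbp1.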
